A study of Mus musculus with 18 samples.

Results

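The enzymes of glycolysis described here are the 10 genes Gpi1, Aldoa, Tpi1, Gapdh, Pgk1, Pgam1, Eno1, Pkm, Ldha and Ldhb, chosen by name out of the 24035 genes counted. Their levels were read in neurons sorted from the cortex of embryonic C57BL/6 mice, as mRNA and as ribosome footprints, the stretches of mRNA that a ribosome shields from nuclease. The embryos were electroporated in utero with an MTOR construct at day 14 of gestation, and neurons that had taken it up were collected by flow cytometry at day 18. The construct was wild-type MTOR in the group called WT here, MTOR p.C1483Y in the second group and MTOR p.L2427P in the third. All 3 groups therefore carried an introduced MTOR beside their own Mtor gene, and the set holds no library without a construct. The labels give 3 footprint and 3 mRNA libraries per construct, 18 in all, and do not say whether each came from separate embryos, so p-values measure the spread between these libraries, which may be technical.

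Glycolysis splits glucose into pyruvate in the cytosol and yields ATP and NADH. The upper steps after entry are run by glucose-6-phosphate isomerase (Gpi1), aldolase A (Aldoa) and triosephosphate isomerase (Tpi1), and the lower steps by glyceraldehyde-3-phosphate dehydrogenase (Gapdh), phosphoglycerate kinase (Pgk1), phosphoglycerate mutase (Pgam1), enolase (Eno1) and pyruvate kinase (Pkm). Lactate dehydrogenase, a tetramer of the Ldha and Ldhb subunits, interconverts pyruvate and lactate. MTOR is a kinase that senses nutrients and growth factors. As background, mTOR complex 1 raises transcription of glycolytic genes in many cell types through the factors HIF1A and MYC, and it controls translation most strongly of mRNAs that begin with a C followed by a run of pyrimidines, the terminal oligopyrimidine motif. The comparisons ask whether neurons with a mutant MTOR hold more or less mRNA, or more or fewer footprints, of these enzymes than neurons with wild-type MTOR.

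The starts of the transcripts are shown because that background concerns their first bases. Each line gives 30 bases in the direction of transcription from the RefSeq annotation of GRCm38.p6, with the 20 transcribed bases in capitals and the 10 bases before the start in lower case.
Ldhb, chr6:142507938-142507967, minus strand: ccgcctcctcCTCCTCCTTCTTGTAGAGCC
Ldha, chr7:46845794-46845823, plus strand: acgtcagcgcGGAGCTTCCATTTAAGGCCC
Pkm, second annotated start, chr9:59657217-59657246, plus strand: ctccccccgcATTCTAGTCACGTCCGCGGA
Pgam1, chr19:41911861-41911890, plus strand: cttgcctgagGCGCATGCGCACACGGGGCG
Gapdh, chr6:125165754-125165783, minus strand: agagggaggaGGGGAAATGAGAGAGGCCCA
Pgk1, chrX:106187090-106187119, plus strand: gggtgggtccGGGGGCGGGCTCAGGGGCGG
Tpi1, chr6:124814139-124814168, minus strand: agagccgtgcGTTTGTACTGACCTTCAGAG
Ldhb alone of the 10 genes had a C followed by at least 4 pyrimidines at an annotated start read here, in an unbroken run of 12 pyrimidines. Of all 27025 genes with an annotated start, 3.01% had such a start. The annotated genes Ldha, Gapdh and Aldoa begin upstream of the starts read here, and starts farther upstream were not read. The annotated start need not be the one used in these neurons.

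The stretch before the first Ldha start read here is shown because it holds the largest number of ACGTG matches among the windows of the enzymes. ACGTG is the core of the element bound by HIF1A, and CACGTG, which contains it, is the E-box bound by MYC. The 250 bases before the start are chr7:46845554-46845803 on the plus strand, with each match to ACGTG on either strand in capitals.
Ldha: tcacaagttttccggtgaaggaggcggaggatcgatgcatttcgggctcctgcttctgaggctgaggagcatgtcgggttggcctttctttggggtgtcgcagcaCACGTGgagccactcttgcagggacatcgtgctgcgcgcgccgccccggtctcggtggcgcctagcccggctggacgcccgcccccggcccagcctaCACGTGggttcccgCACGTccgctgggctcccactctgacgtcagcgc
It has 3 stretches in capitals, 2 of them CACGTG, which reads as ACGTG on both strands. In windows of 300 bases, from 250 before to 50 after each annotated start, ACGTG on either strand was found for 6 of the 10 enzymes (Aldoa, Gapdh, Pgk1, Pgam1, Pkm and Ldha) and for 21.8% of the 27025 genes. A match describes letters and not binding.

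Footprint libraries held 7695442 to 34094913 counts on named genes and mRNA libraries 18627076 to 53283035. The share of the 5000 most abundant genes without a single count was largest in L2427P replicate 3 (51.6%) and C1483Y replicate 3 (23.22%) among mRNA libraries. Among the footprint libraries used it was largest in WT replicate 1 (16.64%), followed by C1483Y replicate 1 (14.1%). The third C1483Y footprint library entered no fit, because beyond position 5400 of its file the values no longer stand beside their own gene names, and of the enzymes only Aldoa lies before that position. Summed markers of projection neurons ran from 5192 to 7633 CPM (counts scaled to the library total, in the usual CPM unit) in mRNA and from 8461 to 12909 CPM in footprints, beside 0 to 72.7 CPM for 4 endothelial markers. Radial glial and progenitor markers summed to 184 to 619 CPM in mRNA and 895 to 1663 CPM in footprints. Astrocyte markers reached 882 CPM in an L2427P mRNA library and ran from 326 to 911 CPM in footprints. Microglial markers reached 289 CPM and those of the oligodendrocyte lineage 218 CPM, both in footprints. Interneuron markers reached 189 CPM and erythroid markers 174 CPM, also in footprints. Nearly all of that erythroid sum was Fech, at 174 CPM. The globin genes Hba-a1, Hba-a2, Hbb-bs and Hbb-bt had no count in any library used, and Hbb-y reached at most 0.127 CPM. The part of these other cell types in the values below was not tested. Mtor, which may include reads of the construct, had footprints of 3618 ± 611 CPM (SD, n = 3) in WT, 2514 ± 520 (SD, n = 2) in C1483Y and 1923 ± 1046 (SD, n = 3) in L2427P. On the log2 scale its L2427P footprints differed from WT by -1.04 (SE 0.24, edgeR adjusted p = 0.107).

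Every enzyme but Eno1 was found in every library used. CPM scales a count to the total of its library and takes no account of transcript length, so levels are compared between libraries and not between genes. Values are given in the order of replicates 1 to 3 of WT, C1483Y and L2427P, with replicates 1 and 2 only for C1483Y footprints.

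The enzymes of the upper steps gave overlapping groups in both assays. Gpi1, which turns glucose 6-phosphate into fructose 6-phosphate, had mRNA of 114, 202 and 135 CPM in WT, 253, 248 and 82.1 CPM in C1483Y and 228, 147 and 214 CPM in L2427P. Its footprints were 76.4, 224 and 141 CPM in WT, 312 and 111 CPM in C1483Y and 215, 211 and 263 CPM in L2427P. The lowest Gpi1 footprint value belonged to WT replicate 1 and the lowest mRNA value to C1483Y replicate 3, both libraries that lack many abundant genes.

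Aldoa cleaves fructose 1,6-bisphosphate into a pair of triose phosphates. Its mRNA was 266, 166 and 164 CPM in WT, 209, 117 and 12.0 CPM in C1483Y and 226, 224 and 594 CPM in L2427P. The extremes, 12.0 and 594 CPM, came from C1483Y replicate 3 and L2427P replicate 3, the mRNA libraries with the most missing genes. Aldoa is the member that can also be read in the displaced footprint library, and its footprints were 1.56, 325 and 168 CPM in WT, 156, 176 and 185 CPM in C1483Y and 156, 160.0 and 156 CPM in L2427P. All 6 mutant footprint libraries lay within 156 to 185 CPM, while the WT libraries ran from 1.56 CPM, a count of 12 in WT replicate 1, to 325 CPM.

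Tpi1, which interconverts the triose phosphates, had mRNA of 705, 598 and 475 CPM in WT, 805, 743 and 387 CPM in C1483Y and 786, 475 and 223 CPM in L2427P. Its footprints were 242, 208 and 357 CPM in WT, 510.0 and 330.0 CPM in C1483Y and 344, 225 and 456 CPM in L2427P. Tpi1 footprints varied little, with a highest value 2.45 times the lowest over the 8 libraries, and the groups overlapped.

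**Figure D1:**
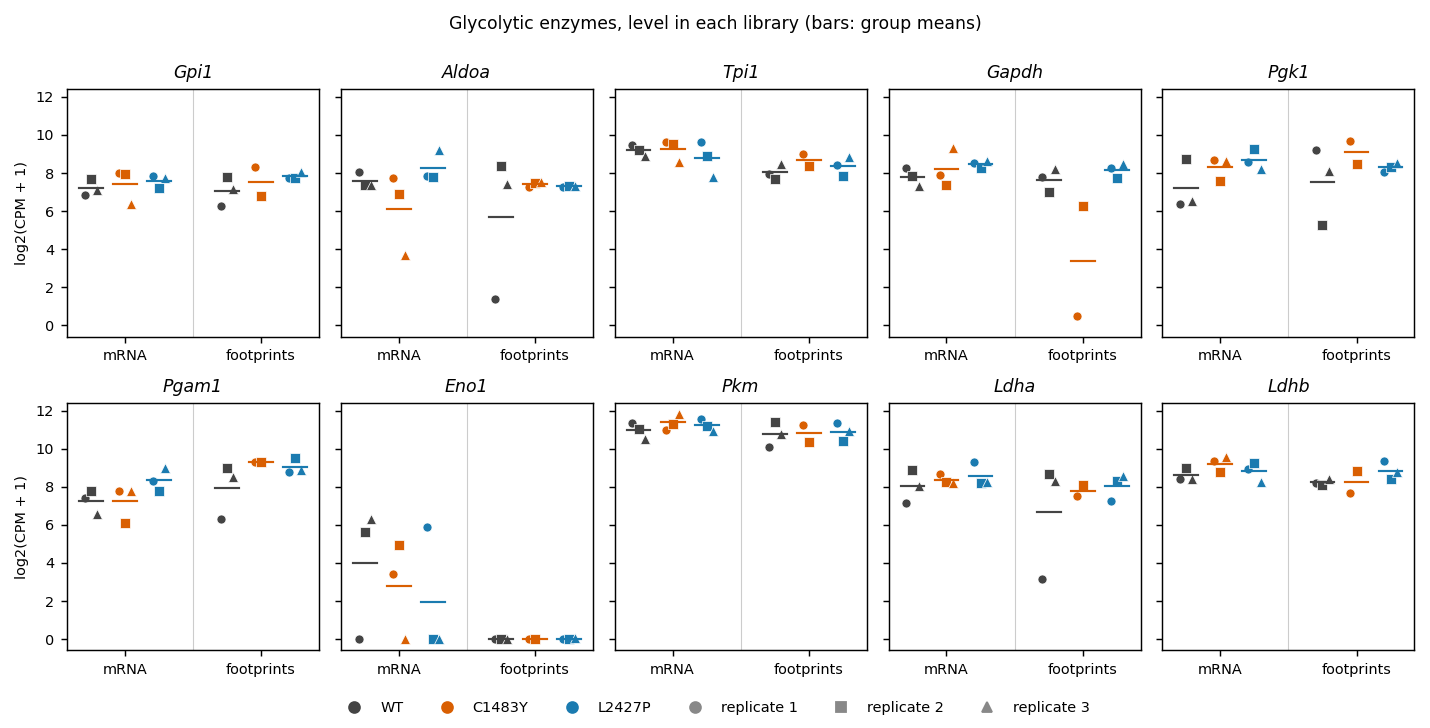
Level of each enzyme in each library as log2(CPM + 1), with mRNA on the left and footprints on the right of each panel. Colours are the constructs, symbols the replicates and bars the group means. Pkm varied little, Eno1 was at or near 0 in footprints, and single low libraries stand out for Gapdh in C1483Y and for Aldoa and Ldha in WT.

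Gapdh, which oxidises glyceraldehyde 3-phosphate and is widely used as a reference gene, showed the widest footprint range of the 10. Its footprints were 220.0, 125 and 293 CPM in WT, 0.380 and 76.1 CPM in C1483Y and 309.7, 215 and 353 CPM in L2427P. Both C1483Y libraries lay below all 3 WT libraries, and C1483Y replicate 1 held 9 Gapdh counts. Among the 3937 genes of at least 50 CPM in footprints, 17.4% had both C1483Y libraries above or below all WT libraries. The fitted difference between C1483Y and WT was -2.54 on the log2 scale (SE 1.53, 95% interval -5.54 to 0.46, edgeR adjusted p = 0.710), so it did not pass the test. Without C1483Y replicate 2, which leaves replicate 1 alone in its group with a spread assumed like that of the other groups, it was -9.09 with an adjusted p of 0.0392 in edgeR. Without C1483Y replicate 1 it was -1.68 with an adjusted p of 1 in edgeR. Gapdh mRNA showed no such gap, with 307, 230.2 and 157 CPM in WT, 237, 163 and 639.7 CPM in C1483Y and 373, 304 and 389.9 CPM in L2427P. The mRNA of C1483Y replicate 1, at 237 CPM, lay inside the range of WT. Of the reads, 21.9% to 29.5% in the footprint files and 49.9% to 77.5% in the mRNA files were not aligned uniquely. The mouse genome holds many Gapdh pseudogenes, and what multiple alignment took from Gapdh was not tested.

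Pgk1, the first enzyme of the pathway to make ATP, had mRNA of 81.3, 431 and 92.6 CPM in WT, 404, 191 and 396 CPM in C1483Y and 381, 603 and 295 CPM in L2427P. Its footprints were 596, 37.7 and 276 CPM in WT, 835 and 349.9 CPM in C1483Y and 260.0, 323 and 368 CPM in L2427P. The lowest value in both assays came from WT, and the groups overlapped. WT replicate 2 had the highest WT mRNA value and the lowest footprint value.

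Pgam1, which moves the phosphate of phosphoglycerate, had the highest fitted footprint level relative to its mRNA among the 9 enzymes tested. Its footprints were 78.9, 511 and 363 CPM in WT, 634 and 626 CPM in C1483Y and 433, 739.7 and 465 CPM in L2427P. Both C1483Y libraries lay above all WT libraries, a pattern again to be read against 17.4% of genes, and the L2427P libraries overlapped WT. Its mRNA was 167, 219 and 92.7 CPM in WT, 217, 68.4 and 223 CPM in C1483Y and 319.6, 219 and 503 CPM in L2427P, and these groups overlapped. The footprint difference between both mutants and WT was 0.90 (SE 0.60, 95% interval -0.28 to 2.08, edgeR adjusted p = 0.791), and an exact two-sided permutation test over 5 against 3 libraries gave p = 0.107, or 0.733 adjusted over 20 tests. WT replicate 1, at 78.9 CPM, was the lowest of the 8 libraries.

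Eno1, the enolase of most tissues, was nearly absent from the counts. Its footprint count was 0 in 7 of 8 libraries and 1 in L2427P replicate 3. A count of 0 allows up to 0.0880 to 0.390 CPM depending on the library. The 0.0880 is that of WT replicate 3, where all counts are multiples of 3, so this limit may be too low. Its mRNA was 0, 48.1 and 79.3 CPM in WT, 9.55, 29.7 and 0 CPM in C1483Y and 58.5, 0 and 0 CPM in L2427P. Each construct had at least 1 mRNA library at 0 and at least 1 with 9.55 CPM or more. Eno1b, an intronless copy of Eno1 in the mouse genome, reached at most 0.190 CPM in any library. Whether reads of Eno1 were lost because they also align to that copy was not tested. Eno1 passed the filter on low counts in mRNA and not in footprints.

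Pkm, whose product makes pyruvate and the last ATP of the pathway, was the steadiest of the enzymes in mRNA. Its mRNA was 2584, 2096 and 1474 CPM in WT, 2057, 2550.2 and 3607 CPM in C1483Y and 3005, 2379 and 1950.4 CPM in L2427P. Its footprints were 1102, 2682 and 1762 CPM in WT, 2455 and 1326 CPM in C1483Y and 2610.2, 1336 and 1978 CPM in L2427P. The groups overlapped in both assays. Pkm gave the narrowest intervals of the enzymes, with a difference of both mutants from WT of 0.20 in mRNA (95% interval -0.25 to 0.65) and of 0.03 in footprints (95% interval -0.47 to 0.53). The counts do not separate the Pkm1 and Pkm2 splice forms, which differ by mutually exclusive exons.

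Ldha and Ldhb encode the subunits of lactate dehydrogenase that prevail in muscle and in heart. Ldha mRNA was 139.9, 469 and 266 CPM in WT, 406, 301 and 298 CPM in C1483Y and 637, 293 and 305 CPM in L2427P. Ldha footprints were 7.80, 402 and 317 CPM in WT, 183 and 268 CPM in C1483Y and 151, 319 and 372 CPM in L2427P. The low WT value is that of replicate 1, a count of 60, and the highest value, 402 CPM, is also from WT, so the groups overlapped.

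Ldhb mRNA was 335, 513 and 335 CPM in WT, 643, 433 and 757 CPM in C1483Y and 488, 615 and 308 CPM in L2427P. Ldhb footprints were 291, 273 and 342 CPM in WT, 205 and 448 CPM in C1483Y and 662, 337 and 441 CPM in L2427P. The lowest and the highest Ldhb footprint values both came from mutant libraries, and the groups overlapped. Within libraries, the log2 ratio of Ldha to Ldhb mRNA averaged -0.57 ± 0.60 (SD, n = 3) in WT, -0.84 ± 0.44 in C1483Y and -0.23 ± 0.75 in L2427P, and the exact permutation test of both mutants against WT gave p = 0.976. Ldhb, whose annotated start has the pyrimidine run printed above, had a footprint level relative to mRNA of -0.23 on the log2 scale over the constructs (95% interval -1.27 to 0.82), with no difference between mutants and WT beyond its error (0.02, 95% interval -2.15 to 2.19).

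Across the comparisons none of the enzymes passed an adjusted p of 0.05 in edgeR's quasi-likelihood test. This holds for C1483Y against WT, L2427P against WT, both mutants against WT and L2427P against C1483Y, each in mRNA (10 enzymes tested), in footprints (9 tested) and in footprints relative to mRNA (9 tested). The background was as empty. In these 12 comparisons 0% of the 9558, 10315 and 8876 genes tested passed, except for L2427P against C1483Y in mRNA, where 0.0105% did, a single gene that is not an enzyme of this group. None of the enzymes had an unadjusted p under 0.05 in any of the 12. Over all genes 131 to 458 had one, depending on the comparison. A share of 0.05 of the genes tested would be 477.9 in mRNA, 515.75 in footprints and 443.8 in footprints relative to mRNA. Every comparison lay below that number, so the lack of a small p for the enzymes says little about them. DESeq2 called none of the enzymes in the 12 comparisons either.

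In mRNA, 7 of the 10 enzymes had a fitted level above WT in the C1483Y libraries and 8 of 10 in the L2427P libraries, with median log2 differences of 0.21 and 0.24 beside -0.05 and -0.28 over all genes tested. In footprints it was 7 of 9 in both, with medians of 0.09 and 0.23 beside -0.16 and 0.32. Over tested genes of at least 50 CPM the footprint median was -0.11 for each mutant. Both mutants are set against the same WT libraries, and the enzymes share libraries, so these counts are descriptions. Apart from Gapdh and Pgam1 footprints in C1483Y, the libraries of each mutant overlapped those of WT for every enzyme. Over genes of at least 50 CPM, the share without overlap was 8.74% for C1483Y, 10.2% for L2427P and 1.61% for both mutants in mRNA, and 17.4%, 9.22% and 3.73% in footprints. The width of the intervals limits what could be seen. For Pkm the mRNA interval for C1483Y against WT ran from -0.21 to 0.82 on the log2 scale, for Ldhb it ran from -0.59 to 1.64, while for Aldoa it ran from -2.85 to 1.35. With DESeq2 size factors the footprint median was 0.32 for C1483Y, beside -0.19 over all genes, and -0.02 for L2427P, beside 0.13, so the sign for L2427P depends on the scaling.

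**Figure D2:**
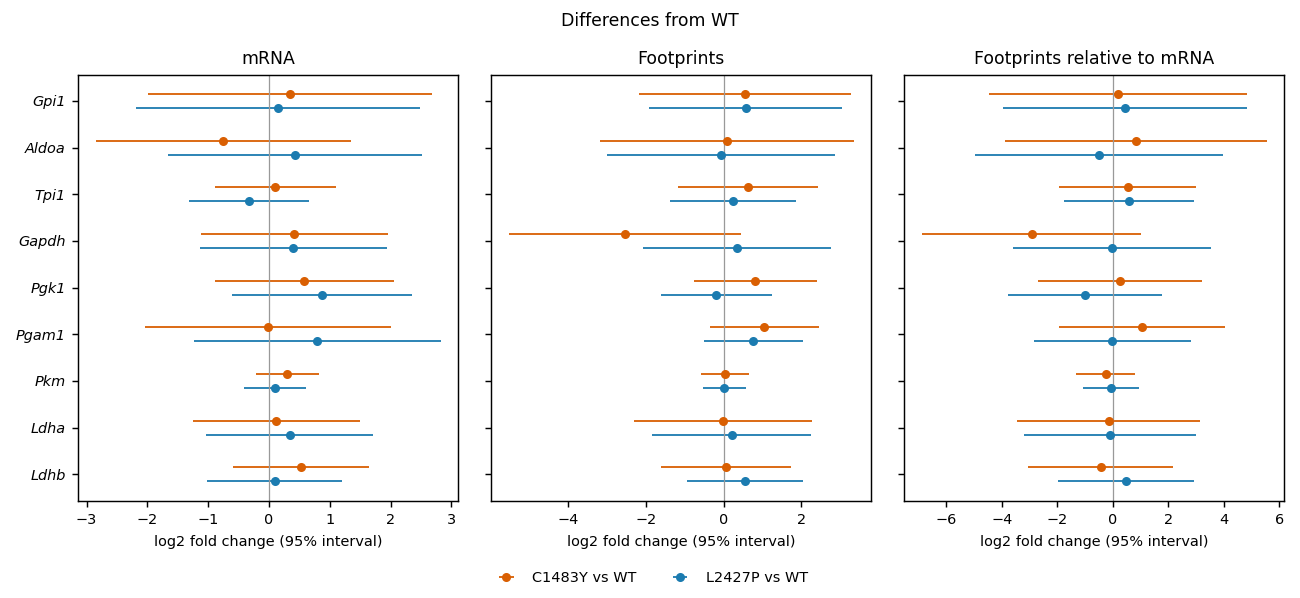
Fitted log2 differences from WT with 95% intervals for 9 enzymes, in mRNA, in footprints and in footprints relative to mRNA (edgeR). Orange is C1483Y and blue L2427P. Every interval includes 0, the intervals of Pkm are the narrowest, and Gapdh in C1483Y lies farthest from 0, at -2.54 in footprints and -2.93 in footprints relative to mRNA. Eno1 is not drawn because its footprints failed the filter on low counts.

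Footprints relative to mRNA, often called translational efficiency, were read within each construct and averaged over the 3 constructs. None of the 9 enzymes tested passed, beside 2.79% of 8876 genes in the averaged comparison and 0.665%, 0.259% and 0.518% within WT, C1483Y and L2427P. By direction, 1.67% of genes were higher and 1.13% lower in footprints in the averaged comparison, 0.169% and 0.496% within WT, 0.124% and 0.135% within C1483Y, and 0.259% each way within L2427P. Pgam1 was the highest, with a log2 level of 1.41 over the constructs (SE 0.62, 95% interval 0.20 to 2.62, unadjusted p = 0.0220, edgeR adjusted p = 0.262), above 83.2% of genes tested. DESeq2's adjusted p for the same comparison was 0.00688 with a log2 level of 1.52, in a test that called 1617 of the 8876 genes. The ratio of mean Pgam1 footprints to mean mRNA was 1.99 in WT, 3.72 in C1483Y and 1.57 in L2427P. Gapdh and Tpi1 had the lowest levels, -0.94 (SE 0.79) and -0.62 (SE 0.51), and the other enzymes lay between -0.32 and 0.56. The Gapdh level was 0.04 within WT, 0.01 within L2427P and -2.89 within C1483Y, and its average was -0.49 without footprint library C1483Y replicate 1 and -3.13 without replicate 2. Pkm was at -0.13 with a 95% interval of -0.56 to 0.30. The level is relative to the scaling of each assay, and setting the scale within each assay moved the median of all genes by -0.24.

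**Figure D3:**
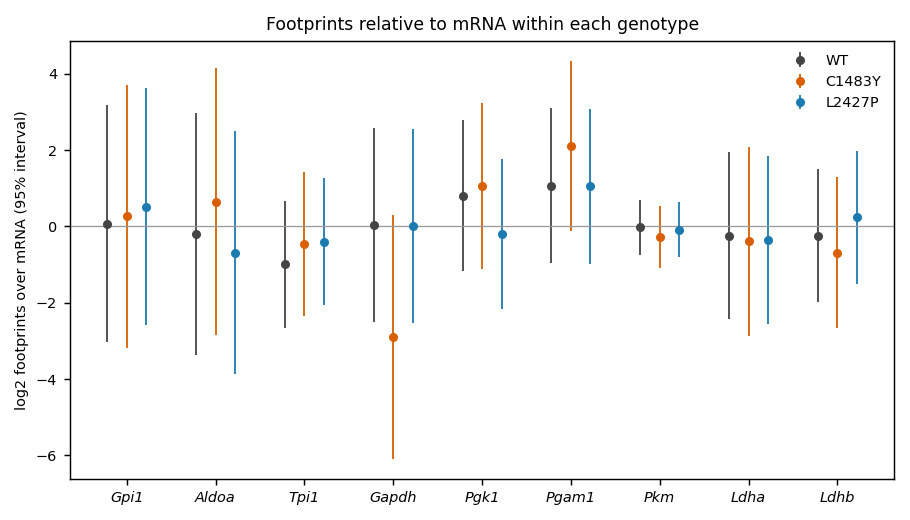
Fitted log2 level of footprints relative to mRNA within each construct, with 95% intervals (edgeR), for 9 enzymes. Pgam1 lies above 0 in the 3 constructs, at 1.07 in WT, 2.12 in C1483Y and 1.05 in L2427P, and Gapdh is low in C1483Y at -2.89, with intervals that include 0.

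Between constructs every 95% interval of the enzymes in footprints relative to mRNA included 0. The largest fitted differences were those of Gapdh, at -2.93 (SE 2.02) for C1483Y against WT and 2.90 (SE 2.02) for L2427P against C1483Y. For both mutants against WT the fitted differences ran from -1.48 for Gapdh (95% interval -4.67 to 1.72) to 0.57 for Tpi1 (95% interval -1.50 to 2.64), with a median of 0.02 beside 0.28 over all genes tested. The sign of that median depends on the scaling, since it was -0.23 beside 0.13 with DESeq2 size factors, -0.05 beside 0.20 with library totals and -0.0075 beside 0.27 with TMM within each assay. Pkm again had the smallest error, with -0.16 (95% interval -1.06 to 0.73).

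Summed over the 10 genes, the enzymes made up 0.327% to 0.65% of counts in the mRNA libraries and 0.262% to 0.529% in the footprint libraries. The summed mRNA was 4314 ± 914 CPM (SD, n = 3) in WT, 5495 ± 809 (SD, n = 3) in C1483Y and 5515 ± 888 (SD, n = 3) in L2427P. The summed footprints were 3807 ± 1101 CPM (SD, n = 3) in WT, 4501 ± 1116 (SD, n = 2) in C1483Y and 4620 ± 668 (SD, n = 3) in L2427P. Mutant means were 1.18 to 1.28 times the WT mean, with overlapping libraries, and no test was made of a sum over chosen genes. Pkm made up 47.0% ± 6.25 (SD, n = 9) of the summed mRNA and 43.8% ± 7.24 (SD, n = 8) of the summed footprints. The ratio to WT depended on single libraries. In footprints it was 1.21 for L2427P and 1.18 for C1483Y, and it was 1.05 and 1.02 without WT replicate 1. Without C1483Y replicate 1 it was 0.97 for C1483Y, which turns its direction. In mRNA it was 1.27 for C1483Y and 1.28 for L2427P, and 1.14 for both without WT replicate 3. These bulk values cannot tell fewer expressing cells from less RNA in each cell.

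**Figure D4:**
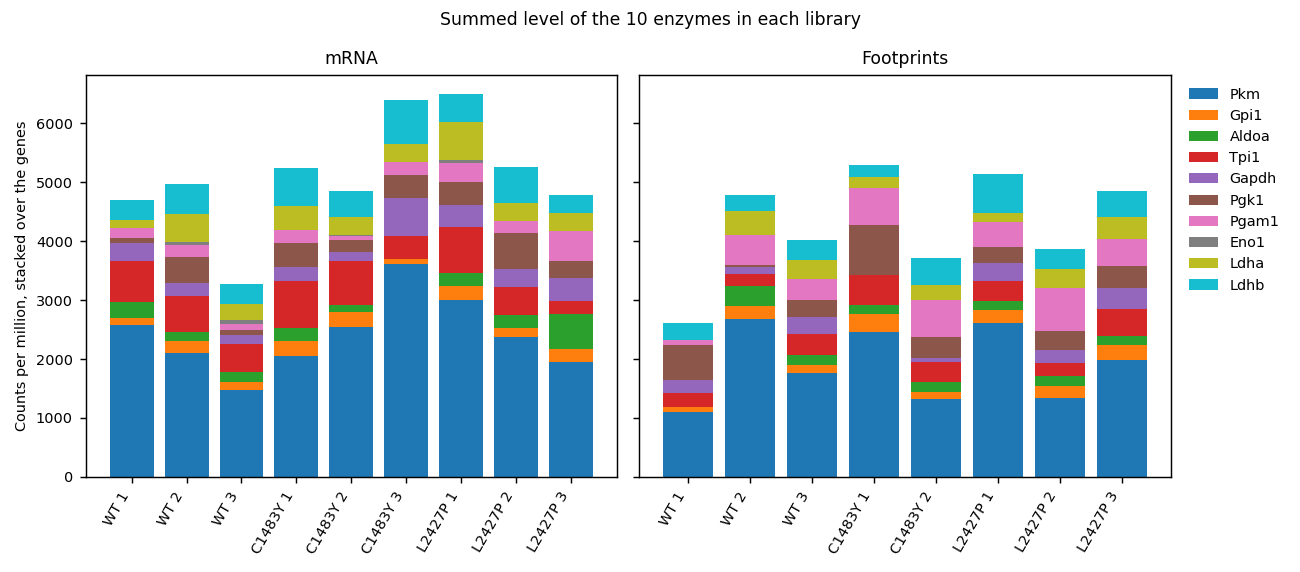
CPM of the 10 enzymes stacked for each library, mRNA on the left and footprints on the right. The sum ranged from 3271 to 6502 CPM in mRNA and from 2615 to 5290 CPM in footprints, and Pkm is the largest block in every library.

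The genes whose pattern over the 17 libraries was closest to the summed level were Tcf4, Fads1, Eef1a1, Tubb2b and Ncan. Likeness is the root mean square difference of log2(CPM + 1) centred in each assay, over 1362 genes of at least 100 CPM in both assays. It was 0.239 for Tcf4, 0.285 for Fads1, 0.301 for Eef1a1, 0.314 for Tubb2b and 0.318 for Ncan, with a median of 1.67 over the 1362 genes. Among the enzymes it was 0.200 for Pkm, which dominates the sum, 0.443 for Ldhb, 0.500 for Gpi1 and 0.510 for Tpi1, and 1.82 for Gapdh, above that median. Genes that vary little over these libraries score low by this measure, whatever their pattern.

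In mRNA the enzymes were among the steadier genes of these libraries, and in footprints this held for only part of them. The SD of log2(CPM + 1) within groups was below the median of all genes of at least 50 CPM for 9 of 9 enzymes in mRNA and 8 of 9 in footprints, leaving out Eno1. It ranged from 0.38 for Pkm to 1.33 for Aldoa in mRNA, beside a median of 2.34 over 4346 genes. In footprints it ranged from 0.46 for Tpi1 to 2.40 for Aldoa, beside a median of 2.36 over 3937 genes. Counts of 0 raise the spread of lower genes. Among genes of 100 to 1000 CPM, the band that holds 8 of these 9 enzymes, the median was 1.34 in mRNA and 1.55 in footprints, and 8 and 5 of the 8 lay below it. Footprint library WT replicate 1 was the lowest of the 8 libraries for 5 of the 9 enzymes, Gpi1, Aldoa, Pgam1, Pkm and Ldha.

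**Figure D5:**
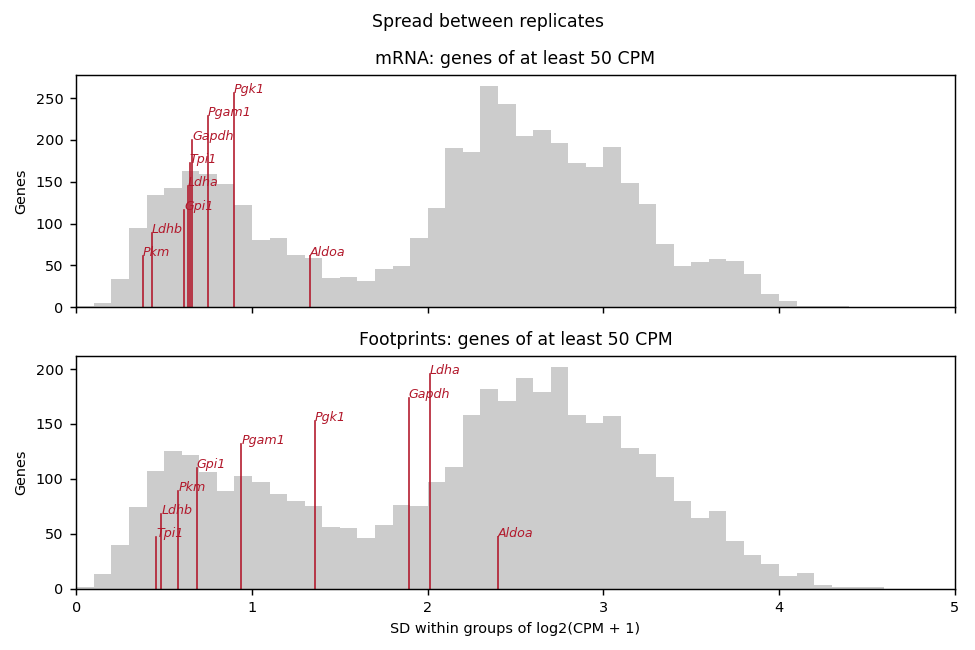
Number of genes of at least 50 CPM by their SD of log2(CPM + 1) within groups, in mRNA above and in footprints below, with the 9 enzymes other than Eno1 marked in red. The mRNA marks lie between 0.38 and 1.33, below the median of 2.34, and in footprints Aldoa, Ldha and Gapdh lie apart from the others, at 2.40, 2.01 and 1.89.

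The other genes of the pathway gave no call either. Of 69 listed genes 68 were in the files, 52 entered at least 1 comparison and 0 passed in any of the 16, with 2.79% of genes passing in the averaged footprint comparison. In mRNA of both mutants against WT, 10 of the 18 genes of transport and entry were tested and 3 had a positive difference, as did 2 of 4 paralogues of the enzymes, 5 of 13 genes of pyruvate and lactate, 10 of 15 of the branches and 2 of 6 regulators. Bsg, the chaperone of the lactate transporters, had the smallest unadjusted p of these, with mRNA of 1178 ± 756 CPM in WT, 721 ± 221 in C1483Y and 629 ± 394 in L2427P (SD, n = 3 each). Its difference was -0.83 (SE 0.35, unadjusted p = 0.0198, edgeR adjusted p = 1.00), and the groups overlapped. Its footprints, 602 ± 84.2, 728 ± 106 and 650.1 ± 110 CPM in the same order (SD, n = 3 each, the displaced library included), did not show that difference.

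Glucose enters neurons mainly through the transporter Slc2a3 and enters many cells through Slc2a1. Slc2a1 mRNA was 40.3 to 69.4 CPM in WT, 0 in 2 of 3 C1483Y libraries with at most 0.0393 CPM in the other, and 0 to 40.9 CPM in L2427P, while its footprints reached 249 CPM in a C1483Y library. Its mRNA difference between C1483Y and WT had an unadjusted p of 0.0542 and an adjusted p of 1.00 in edgeR. Such genes at 0 in whole libraries were common, and the fitted folds for them are not given. They include Slc2a4, Slc16a7, Gapdhs and Pfkp in mRNA, and in footprints Pdk1, Pdk3, Rpe, Psph and Myc, which were named for the small p they gave in 1 or more comparisons. Pgm2, listed among the branches, had at most 0.0880 CPM in WT footprints, 119 and 124 CPM in C1483Y and 32.2 to 68.7 CPM in L2427P. Its unadjusted p for C1483Y against WT was 0.0177 and its adjusted p 0.710 in edgeR. Pgm1, of the same list, was at 0 in 5 of 9 mRNA libraries. It was named for footprints relative to mRNA within L2427P, where its unadjusted p was 0.267 in edgeR.

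Hexokinase 1 (Hk1), which commits glucose to the cell, had mRNA of 174 ± 34.9 CPM in WT, 226 ± 71.5 in C1483Y and 89.8 ± 106 in L2427P and footprints of 227 ± 184 (SD, n = 3), 332 ± 124 (SD, n = 2) and 466 ± 127 CPM (SD, n = 3). Phosphofructokinase, the controlled step of the pathway, was represented by Pfkl and Pfkm. Pfkl mRNA was 82.5, 182 and 66.6 CPM in WT and 248, 257 and 259 CPM in C1483Y, which did not overlap, and 198, 82.6 and 0.0477 CPM in L2427P. Among genes of at least 50 CPM 8.74% had C1483Y mRNA libraries above or below all WT libraries, and the fitted Pfkl difference was 1.11 (SE 1.41, edgeR adjusted p = 1.00). The log2 ratio of Pfkl to Pfkm mRNA was -1.60 ± 0.84 in WT, 0.05 ± 0.82 in C1483Y and -0.24 ± 0.56 in L2427P (SD, n = 3 each), with an exact permutation p of 0.0714 for both mutants against WT, or 0.476 adjusted over 12 ratios. In L2427P replicate 3 both genes were at or near 0, so that ratio rests on the pseudocount.

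The paralogues of the enzymes with a mean of at least 50 CPM over the libraries of an assay were Aldoc and Bpgm. Aldoc, the brain aldolase, had mRNA of 60.8 ± 50.8 CPM in WT, 279 ± 225 in C1483Y and 103 ± 93.0 in L2427P, with a difference between C1483Y and WT of 2.12 (SE 1.49, edgeR adjusted p = 1.00). Its footprints averaged 195 ± 152, 264 ± 32.2 and 213 ± 84.4 CPM (SD, n = 3 each, the displaced library included). Bpgm, which makes bisphosphoglycerate, had mRNA of 53.6 to 424 CPM in WT, 29.5 to 219 CPM in C1483Y and 17.3 to 109.8 CPM in L2427P. Pfkfb3, which makes the activator of phosphofructokinase, had footprints of 36.1 ± 56.1 CPM in WT, 168 ± 101 (n = 2) in C1483Y and 179.5 ± 67.2 in L2427P, with a difference of both mutants from WT of 2.36 (SE 1.90, edgeR adjusted p = 0.845). Eno2, the neuronal enolase, reached 91.8 CPM in mRNA and 88.2 CPM in footprints, with libraries at 0 in both assays.

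Of the branch enzymes, Tkt, transketolase of the pentose phosphate pathway, had footprints of 989 ± 248 CPM in WT, 522 ± 150 (n = 2) in C1483Y and 861 ± 222 in L2427P, with an unadjusted p of 0.0552 and an adjusted p of 0.710 for C1483Y against WT in edgeR. Taldo1, transaldolase, had footprints of 345 ± 76.8, 205 ± 44.0 and 619 ± 303 CPM in the same order. G6pdx, which opens that pathway, had footprints of 157 ± 59.1 CPM in WT, 4.23 ± 5.69 (n = 2) in C1483Y and 129 ± 39.6 in L2427P, and its difference between L2427P and C1483Y had an adjusted p of 0.925 in edgeR. Hif1a, the transcription factor of the hypoxia response, had footprints of 210.3 ± 29.6 CPM in WT, 321 ± 215 (n = 2) in C1483Y and 253 ± 109 in L2427P beside mRNA of 78.7 ± 45.6, 42.2 ± 12.6 and 69.0 ± 61.3 CPM. Its footprint level relative to mRNA over the constructs was 2.23 (SE 1.07, edgeR adjusted p = 0.318).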

How the data were processed

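Whole-number counts per gene symbol were deposited by the authors for 17 libraries, and for footprint library C1483Y replicate 3 the deposited values are taken as estimated counts because 165 are not whole, and were rounded. The genome build mm10 and the tools HTSeq (no version), TopHat2 2.1.1 and Bowtie 1.1.2 are listed in the submitters' processing notes, and the strand setting is not given in the sources used here. The counts of footprint library WT replicate 3 are all multiples of 3, by a step that no label records, so its depth may be overstated. In footprint library C1483Y replicate 3, 99.2% of the values above 0 are multiples of 4 after rounding, which no label explains either. Names turned into dates (27) and the 5 summary values were left out. Summary values are empty in footprint library C1483Y replicate 1, so shares of reads not aligned uniquely exclude it, and C1483Y replicate 3.

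CPM were computed on named genes. Genes were kept by filterByExpr (minimum count 10), scaled by TMM and tested with edgeR 4.0.16 (R 4.3.3, quasi-likelihood, robust, Benjamini-Hochberg over all genes, threshold 0.05), with 9 mRNA, 8 footprint or 17 libraries (footprints relative to mRNA as an interaction). DESeq2 1.42.0 was an alternative. The fits were tested on simulated counts whose spread was set well below that of these libraries, so that test does not show their power here. Exact permutation tests used log2(CPM + 1). The limit given for a count of 0 (3 counts) covers counting error only, since reads are not unique molecules. The members, lists and rules were chosen with earlier results of these data known. The text names all members, other pathway genes past 0.05 or else the 3 with the smallest p per comparison, and paralogues and entry enzymes of at least 50 CPM. Displacement was tested in windows of 300 genes.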

Additional observations from a re-analysis of the deposited data

Results flagged for a closer look

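Gapdh footprints lay on opposite sides of the WT mean of 213 CPM in the mutants, with both C1483Y libraries below it, at 0.380 and 76.1 CPM, and all 3 L2427P libraries above it, at 215 to 353 CPM. The mean of L2427P was 7.65 times that of C1483Y. The difference between the mutants was 2.88 on the log2 scale (SE 1.56, 95% interval -0.18 to 5.94, edgeR adjusted p = 0.925), so it did not pass the test. Without C1483Y replicate 1, which held 9 Gapdh counts, the difference was 1.88 (adjusted p = 1, edgeR), and without replicate 2 it was 9.29 (adjusted p = 0.0380, edgeR). In replicate 1 the other enzymes gave 183 CPM or more in all but Aldoa, at 156 CPM, and Eno1, at 0. Of the 5000 most abundant genes, 14.1% had no count in that library.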

How the results depend on the processing

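No member was called in 15 alternative fits of mRNA, and in the 12 comparisons between constructs the number called was also 0 in footprints and in footprints relative to mRNA under every alternative run, except when single libraries were left out: leaving out 1 library gave 0 to 1 for footprints of C1483Y against WT and of L2427P against C1483Y, where the 1 is Gapdh without C1483Y replicate 2 (-9.09, adjusted p = 0.0392, and 9.29, adjusted p = 0.0380, edgeR). That same omission gave 153, 152 and 125 calls over all genes for footprints of C1483Y against WT, both mutants against WT and L2427P against C1483Y, where none was called with it. The DESeq2 Wald test called 1 member, Pgam1, within C1483Y (2.32, adjusted p = 0.0459) and averaged over constructs (1.52, adjusted p = 0.00688). Over all genes it called 1083 within C1483Y and 1617 averaged over constructs, out of 8876, against 23 and 248 with edgeR. Between constructs it called 172 to 502 genes in mRNA, 288 to 804 in footprints and 478 to 875 in footprints relative to mRNA, against 0 or 1 with edgeR. The cause was not tested. Leaving out libraries moved the summed footprints of L2427P over WT between 1.05 and 1.39. Of 112 fitted member differences between constructs, 64 changed sign in at least 1 alternative, none of them past the threshold. DESeq2 size factors moved the median of all genes by -0.19 in footprints of L2427P against WT. No pairing of samples by the labels' replicate numbers was detected: same-numbered libraries deviated together with correlations of -0.0560 to 0.0344, none above 0.1. Deviations from means of so few libraries cannot show that the samples are unpaired. With the replicate block the number of members called was 0 in every comparison, with adjusted p of 0.377 or more. For all genes, mRNA without L2427P replicate 3 raised the calls averaged over constructs from 248 to 382. Few footprint counts were found for Gapdh in C1483Y replicate 1 (9 in a library of 23701847) and for Aldoa in WT replicate 1 (12 in a library of 7695442). Eno1 was at or near 0 in footprints. The cause of these low counts was not tested.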
